A study of Homo sapiens with 6 samples.

Results

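The genes described here encode the machinery that shortens poly(A) tails, removes caps and degrades messenger RNA. They comprise the CCR4-NOT complex, the deadenylases PAN2-PAN3 and PARN with the TOB adaptors, the decapping enzymes and their activators, the XRN exonucleases, the exosome and the factors of nonsense-mediated decay. The list held 51 genes, each taken from probe sets annotated to that symbol alone, with the probe set of the highest mean over the 6 arrays where a gene had several. Of the 51 genes, 49 were measured among 18417 genes in all, and UPF3A and UPF3B were not analysed here.

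All samples were PC3 cells, a line of androgen-independent, aggressive prostate cancer, and 3 of them had been transfected with a miR-205 mimic and 3 with a negative control mimic. In both groups RNA was recovered with a rat antibody against AGO2, the Argonaute protein that carries microRNAs, and was measured on Affymetrix gene arrays. The series design states biological triplicates, and its title gives the aim of identifying miR-205 targets. The dose of the mimics and the time after transfection are not given in the sources used here. A single cell line was used, and input RNA was not analysed here, so AGO2 binding and transcript abundance cannot be told apart. Nor can fewer cells holding a transcript and less of it per cell.

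MicroRNAs lower their targets largely by recruiting deadenylases. AGO proteins bind TNRC6 scaffold proteins, which contact the CCR4-NOT and PAN2-PAN3 deadenylases. Once the tail is short, the DCP2 enzyme removes the cap and XRN1 degrades the body of the transcript from its 5′ end, while the exosome degrades RNA from its 3′ end. Nonsense-mediated decay is a separate route, in which the helicase UPF1 marks transcripts with premature stop codons and recruits the same decapping and deadenylation enzymes.

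The sequence of the tested microRNA is shown because its seed, bases 2 to 8, is the part that pairs with target transcripts. The labels name miR-205 without an arm, so both mature arms are given from RefSeq (GRCh38.p14, plus strand, 5′ to 3′), with the seed in capitals. They map to chr1:209432166-209432187 and chr1:209432203-209432223.
hsa-miR-205-5p: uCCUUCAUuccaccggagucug
hsa-miR-205-3p: gAUUUCAGuggagugaaguuc
A transcript site complementary to these seeds reads AUGAAGG for the 5p arm and CUGAAAU for the 3p arm. No transcript sequence was at hand, so the decay genes were not searched for either.

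Signal levels were similar over the arrays, with medians of 6.82 to 6.86 on the log2 scale. The 95th percentile of 341 olfactory receptor genes, 6.04, served as a background level, and all 49 measured decay genes had a mean above it, between 7.40 and 12.0. Markers of the labelled cell type were present where these were measured. KRT8, KRT18, VIM and CD44 had means over the 6 arrays of 11.6 to 12.6. These 4 also differed between the groups, with log2 changes of 0.89 for KRT8, 0.55 for KRT18, -0.26 for VIM and -0.28 for CD44 (adjusted p of 0.0106 or less). The prostate antigen gene KLK3, which PC3 cells lack, had a mean of 6.07. Of 8 markers of leukocytes, fibroblasts and liver, 4 lay above background, the highest being COL1A1 with 8.99, while PTPRC (3.61) and ALB (3.98) did not. AGO2 itself, which encodes the immunoprecipitated protein, was at 11.42, 11.52 and 11.42 with miR-205, against 12.18, 12.04 and 12.32 with the control, a log2 change of -0.73 ± 0.08 (adjusted p = 0.000392). Negative control replicate 2 stood apart. Over all genes its differences from the other control arrays had an SD of 0.215 and 0.218, against 0.155 between these others.

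Decay genes changed in both directions. Of the 49 genes, 10 were higher and 8 were lower with miR-205 at an adjusted p under 0.05 by limma, and 31 did not pass. These 18 genes are 36.7% of those measured, beside 26.6% of all genes called in either direction (12.6% higher and 14% lower). The median log2 change was 0.04, beside -0.02 over all genes. For 25 decay genes (51%) the 2 groups of arrays did not overlap, 15 above and 10 below the control, beside 42.2% of all genes (19.9% above and 22.2% below). The changes were of moderate size: 3 genes rose and 4 fell by at least 0.5 on the log2 scale, where 3.27% and 3.76% of all genes did. In a separate fit of the 13590 genes above background, 12 decay genes were higher and 8 lower, beside 2482 and 2787 of those 13590. All 49 decay genes were above background. The shares of all 18417 genes, here and for the lists below, are thus not matched for signal level. In the fit of the 13590 genes a greater share of all genes was called, close to the share of decay genes called there. The gap between 36.7% and 26.6% is therefore not read as an excess among decay genes. Without negative control replicate 2, 13 genes were higher and 10 lower (46.9%, beside 30.1% of all genes, of which 14.5% higher and 15.6% lower). Leaving out any other single array gave 7 to 9 higher and 5 or 6 lower, with 5 lower in each case except without miR-205 replicate 1. The plot of changes by role shows the called exosome genes right of 0, the called nonsense-mediated decay genes left of 0 and deadenylase genes on both sides.

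**Figure D1:**
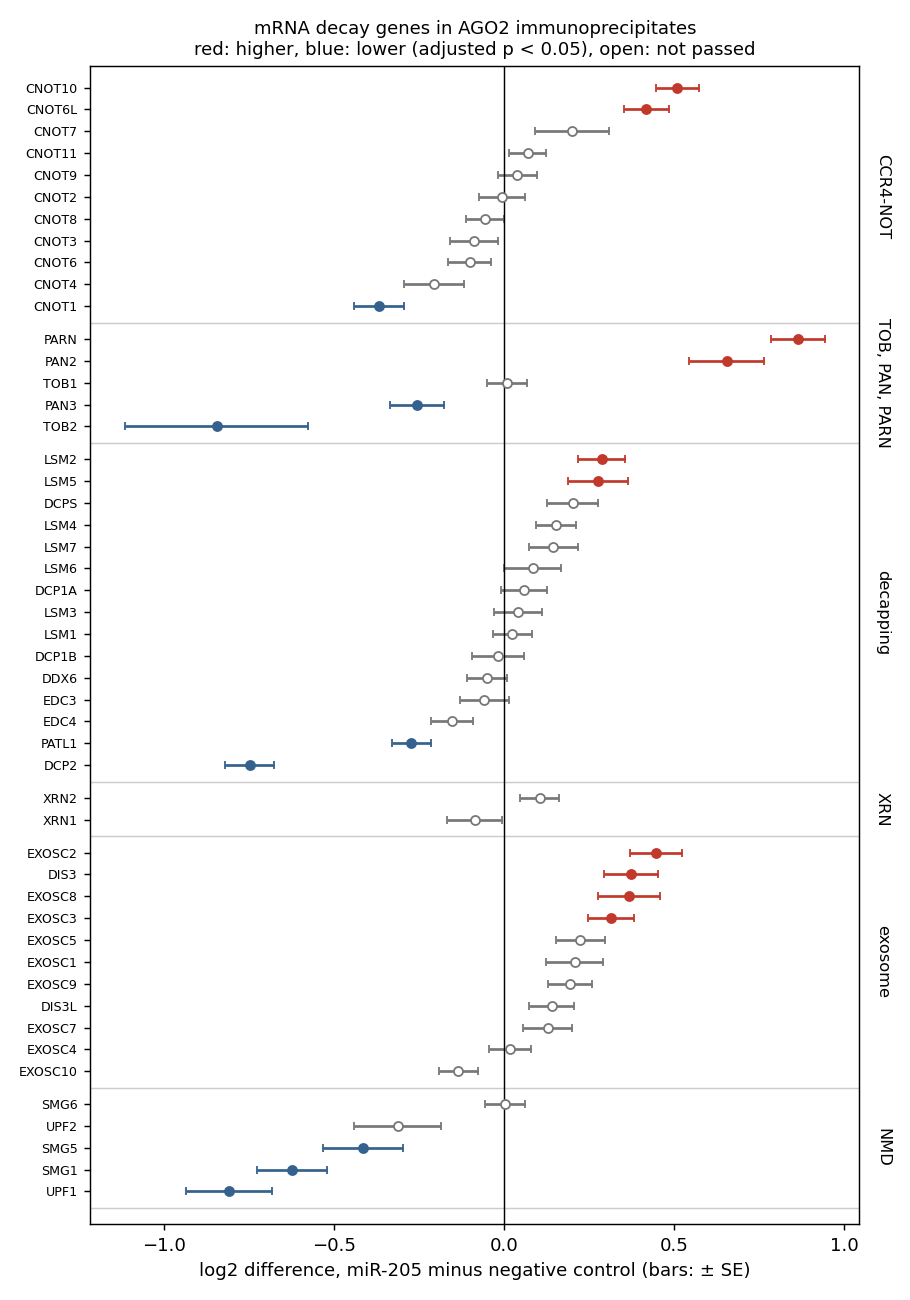
Log2 difference (miR-205 minus negative control) with its SE for 49 decay genes, grouped by role down the page. Filled points passed an adjusted p of 0.05 (10 red, higher; 8 blue, lower) and the 31 open ones did not; the extremes are PARN at 0.86 and TOB2 at -0.85.

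In the CCR4-NOT complex CNOT10 and CNOT6L were higher, CNOT1 was lower and 8 of 11 measured genes did not pass (median log2 change -0.01). The share called, 27.3%, was near the 26.6% of all 18417 genes. In the fit of genes above background the same genes of the complex passed, while a greater share of all genes did. CNOT10, which with CNOT11 forms a module on the N-terminal part of the scaffold, had log2 intensities of 10.12, 9.99 and 10.01 with miR-205, against 9.58, 9.51 and 9.51 with the control. All miR-205 arrays lay above all control arrays, and the controls were tightly grouped. The change was 0.51 ± 0.06 (difference of mean log2 values ± SE, with 3 arrays in each group, adjusted p = 0.000653), or 1.42 times the control level. CNOT11 lay only slightly higher (0.07 ± 0.06, adjusted p = 0.42). CNOT1, the large scaffold on which the complex is built, stood at 11.80, 11.73 and 11.78 with miR-205, against 12.11, 12.03 and 12.27 with the control. The groups did not overlap, and CNOT1 fell by 0.37 (SE 0.07, adjusted p = 0.00662).

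The complex has paired nuclease subunits, CNOT6 or CNOT6L of the CCR4 type and CNOT7 or CNOT8 of the CAF1 type. CNOT6L had intensities of 9.23, 9.09 and 9.15 with miR-205, against 8.75, 8.67 and 8.80 with the control, while CNOT6 had 10.27, 10.20 and 10.24, against 10.38, 10.25 and 10.39. CNOT6L was thus higher on every miR-205 array, while the CNOT6 arrays of the groups overlapped. The log2 changes were 0.42 ± 0.07 for CNOT6L (adjusted p = 0.00203) and -0.10 ± 0.06 for CNOT6 (adjusted p = 0.28). The CNOT6L minus CNOT6 difference within an array was greater with miR-205 by 0.52 (exact permutation p = 0.1, two-sided, and 0.1 after adjustment over 3 such pairs, the smallest that 3 against 3 arrays can give). CNOT6L had another probe set, dimmer, that gave 0.12 (adjusted p = 0.169 over all 21214 annotated probe sets), and averaging both gave a change of 0.27. CNOT7 (0.20 ± 0.11, adjusted p = 0.221) and CNOT8 (-0.06 ± 0.06, adjusted p = 0.521) did not pass. CNOT9, the subunit that TNRC6 proteins contact, was at 11.51, 11.43 and 11.47 with miR-205, against 11.46, 11.43 and 11.40, a change of 0.04 ± 0.06 (adjusted p = 0.676). CNOT2 (-0.01) and CNOT3 (-0.09), which form the NOT module, and the ubiquitin ligase gene CNOT4 (-0.21, adjusted p = 0.122) did not pass either, although without negative control replicate 2 CNOT4 was lower (-0.30, adjusted p = 0.0122).

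Of the 5 genes of other deadenylases and TOB adaptors, PARN and PAN2 rose, PAN3 and TOB2 fell and TOB1 did not pass (80% called, beside 26.6% of all genes). PARN, a poly(A)-specific ribonuclease that also trims small nucleolar and telomerase RNA, had the greatest rise of the 49 genes. Its intensities were 10.22, 10.14 and 10.04 with miR-205, against 9.29, 9.14 and 9.37 with the control. The groups were far apart relative to their spread (0.86 ± 0.08, adjusted p = 0.000151, 1.82 times the control level). PAN2, the nuclease of the PAN2-PAN3 complex, had 8.35, 8.43 and 8.43 with miR-205, against 7.47, 7.93 and 7.84 with the control. It was higher on every miR-205 array, with negative control replicate 1 the lowest (0.65 ± 0.11, adjusted p = 0.003).

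Its partner PAN3, which binds the poly(A)-binding protein and TNRC6, moved the other way, with 9.91, 9.70 and 9.73 with miR-205, against 10.05, 9.93 and 10.13 with the control. The groups were separated narrowly, and PAN3 fell by 0.26 (SE 0.08, adjusted p = 0.0436). That call ended without miR-205 replicate 2 or 3 or negative control replicate 1 or 3 (-0.25 to -0.21, adjusted p = 0.106 to 0.15). TOB2, an adaptor that brings the CAF1 nuclease to target transcripts, had 8.87, 8.63 and 8.56 with miR-205, against 9.79, 8.79 and 10.02 with the control. Negative control replicate 2 lay within the miR-205 range, so the groups overlapped. The change was -0.85 ± 0.27 (adjusted p = 0.0474). Leaving out any 1 array other than negative control replicate 2 ended the call (-0.94 to -0.60, adjusted p = 0.0751 to 0.156), as did repeated quantile normalization (adjusted p = 0.0518) and a robust variance with a trend (adjusted p = 0.183); without that control array the change was -1.22 (adjusted p = 0.000127). TOB1, its paralog, had 11.20, 11.12 and 11.11 with miR-205, against 11.16, 11.08 and 11.16 with the control (0.01 ± 0.06, adjusted p = 0.935). The TOB2 minus TOB1 difference within an array changed by -0.85 with miR-205 (exact permutation p = 0.1, two-sided, the smallest possible). Here too negative control replicate 2 (-2.29) lay close to the miR-205 arrays (-2.33 in replicate 1), while the other controls were at -1.37 and -1.14.

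**Figure D2:**
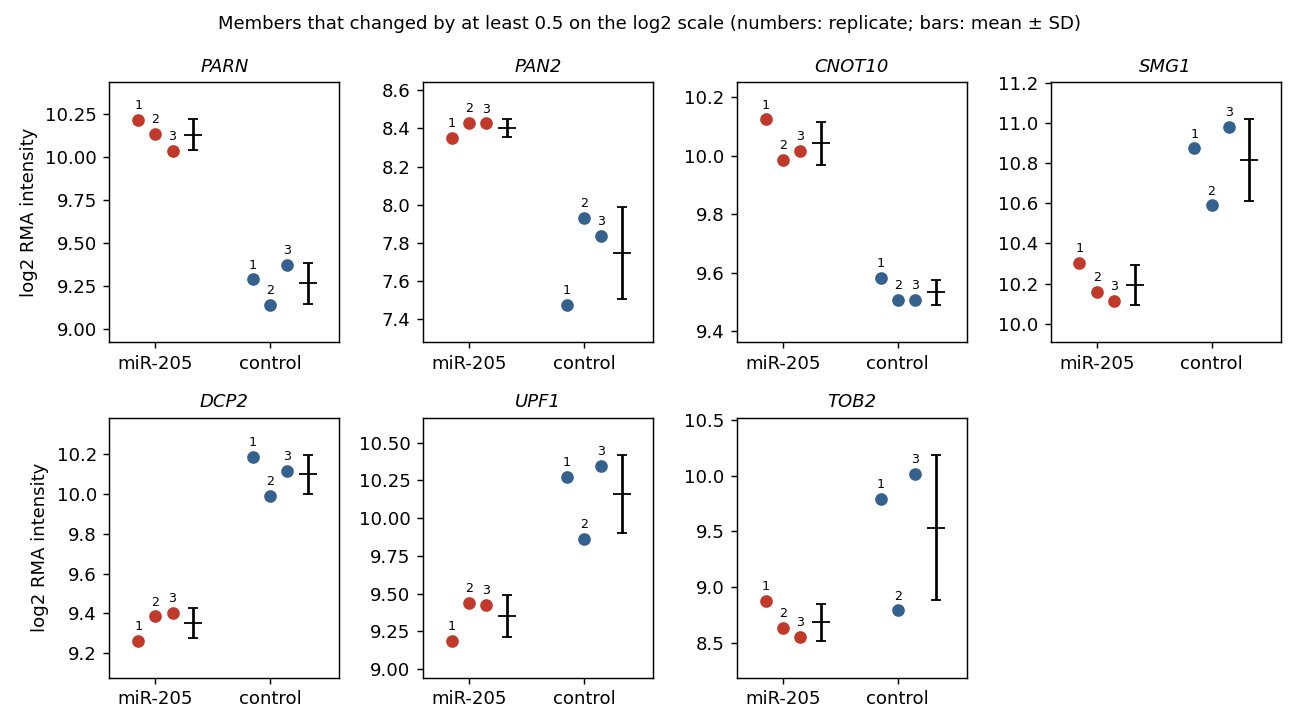
Log2 intensity of the 7 decay genes that passed with a change of at least 0.5, in each miR-205 array (left, red) and each control array (right, blue), with replicate numbers and the mean ± SD of each group. The axes differ between panels and do not start at 0; in 6 panels the groups do not overlap, and in TOB2 control replicate 2 (8.79) lies among the miR-205 arrays.

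Of 15 genes of decapping and its activators, 2 fell (DCP2 and PATL1), 2 rose (LSM2 and LSM5) and 11 did not pass. The share called was 26.7%, near the 26.6% of all 18417 genes. In the fit of genes above background the same genes of this group passed, while a greater share of all genes did. DCP2, the enzyme that removes the cap, had 9.26, 9.39 and 9.40 with miR-205, against 10.19, 9.99 and 10.12 with the control. The groups were wide apart, and DCP2 fell by 0.75 (SE 0.07, adjusted p = 0.000198), to 0.595 times the control level. PATL1, which bridges the LSM ring and the decapping enzyme, had 11.90, 11.95 and 11.87 with miR-205, against 12.17, 12.21 and 12.16 with the control. The replicates of both groups were close together, and PATL1 fell by 0.27 (SE 0.06, adjusted p = 0.00823). The DCP2 cofactors DCP1A (0.06 ± 0.07, adjusted p = 0.587) and DCP1B (-0.02 ± 0.08, adjusted p = 0.9), the scaffolds EDC3 (-0.06 ± 0.07) and EDC4 (-0.15 ± 0.06, adjusted p = 0.107) and the helicase DDX6 did not pass. DDX6 links CCR4-NOT to decapping, and it had 11.06, 11.17 and 11.14 with miR-205, against 11.22, 11.14 and 11.17 with the control (-0.05 ± 0.06, adjusted p = 0.591). DCPS, which hydrolyses the cap remnant left by decay from the 3′ end, had a change of 0.20 ± 0.07 (adjusted p = 0.0788; 0.25 and 0.0413 without negative control replicate 2, 0.26 and 0.0498 without miR-205 replicate 3).

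The LSM1 to LSM7 genes encode a ring that binds shortened tails and promotes decapping. All 7 had positive changes (0.02 to 0.29, median 0.14), as did 46.2% of all genes. Of the 7, 2 passed (28.6%, beside 12.6% of all genes called higher), LSM2 (0.29 ± 0.07, adjusted p = 0.017) and LSM5 (0.28 ± 0.09, adjusted p = 0.0477). The same 2 passed in the fit of the 13590 genes above background, beside 2482 of all its genes called higher. LSM2 had 9.62, 9.72 and 9.76 with miR-205, against 9.39, 9.51 and 9.34 with the control, and the groups did not overlap. LSM5 had 9.03, 9.06 and 9.13 with miR-205, against 8.74, 8.99 and 8.66 with the control. Negative control replicate 2 lay close below the miR-205 arrays for LSM5. The LSM5 call ended without any 1 array other than that one (0.21 to 0.30, adjusted p = 0.0887 to 0.148), and the LSM2 call without miR-205 replicate 2 or 3 or negative control replicate 1 or 3 (0.25 to 0.28, adjusted p = 0.0536 to 0.0669). LSM2, LSM3, LSM4, LSM5, LSM6 and LSM7 also belong to the nuclear ring that binds U6 RNA. LSM1, the subunit of the cytoplasmic ring alone, had a change of 0.02 ± 0.06 (adjusted p = 0.808). LSM8, the subunit of the nuclear ring alone, is on the list of cofactors given further on. It rose by 0.22 ± 0.07 (adjusted p = 0.0432), but did not pass without negative control replicate 2 (0.23, adjusted p = 0.0528). A difference between the rings was not tested.

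The 5′ exonucleases did not pass. XRN1, which degrades decapped transcripts in the cytoplasm, had 9.38, 9.17 and 9.32 with miR-205, against 9.36, 9.29 and 9.49 with the control, and the groups overlapped (-0.09 ± 0.08, adjusted p = 0.479). XRN2, its nuclear counterpart in transcription termination, had 10.22, 10.16 and 10.22, against 10.11, 10.06 and 10.11 with the control, narrowly higher on every miR-205 array (0.10 ± 0.06, adjusted p = 0.219).

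Exosome genes that passed were higher. Of 11 measured genes 4 rose (36.4%, beside 12.6% of all genes called higher), 0 fell at the adjusted threshold and 7 did not pass (8 had an unadjusted p under 0.05, or 72.7%, beside 37.8% of all genes, including EXOSC10, whose change was negative). The median log2 change was 0.21. In the fit of the 13590 genes above background EXOSC5 and EXOSC9 passed as well, beside 2482 of all its genes called higher. EXOSC2 and EXOSC3, cap subunits that sit on top of the ring and bind RNA, rose by 0.45 ± 0.08 (adjusted p = 0.00304) and 0.31 ± 0.07 (adjusted p = 0.00975). EXOSC2 had 10.71, 10.85 and 10.85 with miR-205, against 10.29, 10.30 and 10.48 with the control. EXOSC3 had 8.90, 8.84 and 8.85, against 8.66, 8.46 and 8.53 with the control. In both genes every miR-205 array lay above every control array. The third cap gene, EXOSC1, had a change of 0.21 ± 0.08 and did not pass (adjusted p = 0.103; 0.30 and 0.00738 without negative control replicate 2).

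EXOSC8, a ring subunit, had 9.43, 9.35 and 9.31 with miR-205, against 8.93, 9.20 and 8.86 with the control. Negative control replicate 2 was again the control nearest to the miR-205 arrays (0.37 ± 0.09, adjusted p = 0.018). The call ended without miR-205 replicate 1 or 2 or negative control replicate 1 or 3 (0.30 to 0.37, adjusted p = 0.0539 to 0.0669). The other ring genes lay just short of the threshold or further from it, with EXOSC5 at 0.22 (adjusted p = 0.0506), EXOSC9 at 0.19 (adjusted p = 0.0542; 0.24 and 0.0256 without negative control replicate 2), EXOSC7 at 0.13 (adjusted p = 0.237) and EXOSC4 at 0.02 (adjusted p = 0.88). For EXOSC5 and EXOSC9 the groups did not overlap. The remaining ring gene, EXOSC6, belongs to the list of cofactors given further on and had a change of 0.02 (adjusted p = 0.872).

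The exosome ring of human cells has no nuclease activity of its own, and associated nucleases degrade the RNA. Of these, DIS3 rose. DIS3, the catalytic subunit of the nuclear exosome, had 8.87, 8.84 and 8.96 with miR-205, against 8.55, 8.37 and 8.64 with the control, without overlap, and rose by 0.37 ± 0.08 (adjusted p = 0.00911). Its cytoplasmic paralog DIS3L had 7.98, 7.94 and 7.87 with miR-205, against 7.70, 7.87 and 7.80 with the control, with the groups barely overlapping (0.14 ± 0.07, adjusted p = 0.163). The DIS3 minus DIS3L difference within an array was greater with miR-205 by 0.23 (exact permutation p = 0.1, two-sided, the smallest possible). It was 0.89, 0.90 and 1.09 with miR-205, against 0.85, 0.50 and 0.84 with the control, so the groups were separated narrowly. EXOSC10, the nuclear exonuclease, had 11.56, 11.51 and 11.51 with miR-205, against 11.63, 11.70 and 11.66 with the control. All its miR-205 arrays lay below the controls, by a small margin that did not pass (-0.13 ± 0.06, adjusted p = 0.115). Averaged over the 11 genes, log2 intensity was 9.48, 9.47 and 9.48 with miR-205, against 9.25, 9.30 and 9.27 with the control.

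**Figure D3:**
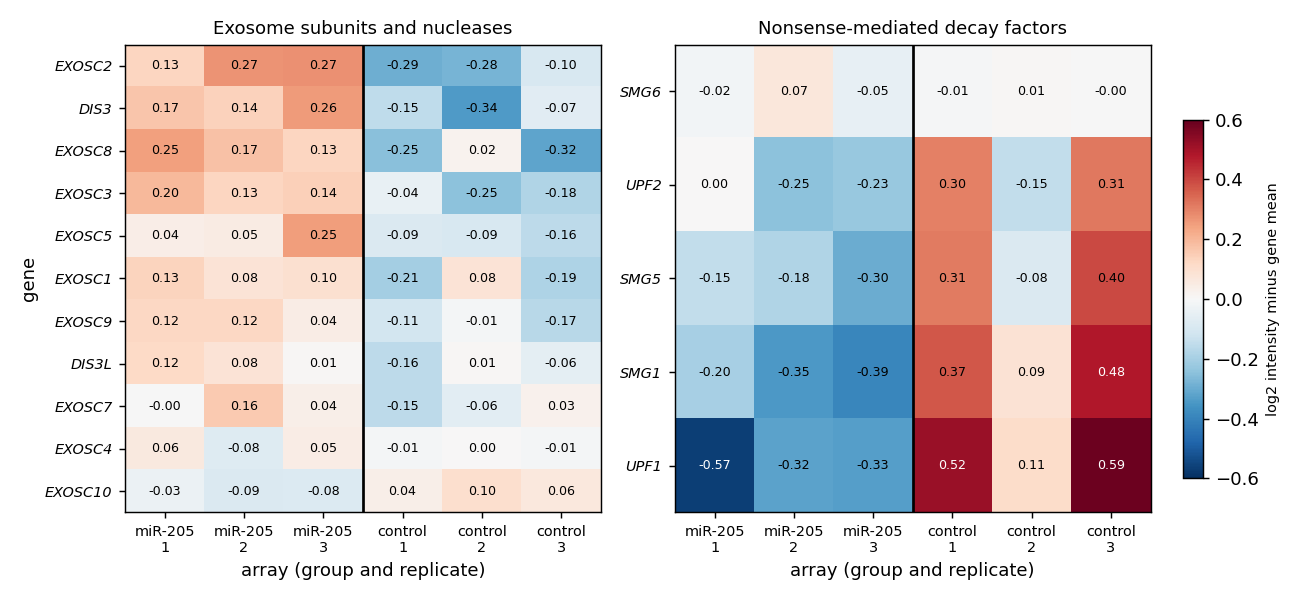
Log2 intensity minus the gene's mean over 6 arrays for 11 exosome genes (left panel) and 5 nonsense-mediated decay genes (right panel), with miR-205 arrays left of control arrays in each panel and red for higher values. In UPF1, SMG1, SMG5 and UPF2 control replicate 2 is lower than the other control arrays, and SMG6 is near 0 throughout.

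The listed genes of nonsense-mediated decay that passed were lower, while cofactors of the pathway, given further on, changed in both directions. Of 5 measured genes 3 fell (60%, beside 14% of all genes called lower), 0 rose and 2 did not pass, with 4 at an unadjusted p under 0.05 (80%, beside 37.8% of all genes). The median log2 change was -0.42. In the fit of the 13590 genes above background the same genes of this group passed, beside 2787 of all its genes called lower. UPF1, the central RNA helicase, had 9.19, 9.44 and 9.43 with miR-205, against 10.27, 9.86 and 10.34 with the control. The groups did not overlap, and UPF1 fell by 0.81 (SE 0.13, adjusted p = 0.00213), to 0.571 times the control level. SMG1, the kinase that phosphorylates UPF1, had 10.30, 10.16 and 10.11 with miR-205, against 10.87, 10.59 and 10.98 with the control. It fell by 0.62 (SE 0.10, adjusted p = 0.00277), again without overlap. SMG1 has near-identical pseudogene copies, which the probe set used here is not annotated to.

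SMG5, an adaptor that binds phosphorylated UPF1, had 9.74, 9.70 and 9.59 with miR-205, against 10.20, 9.80 and 10.28 with the control. Negative control replicate 2 lay just above the miR-205 arrays, and SMG5 fell by 0.42 (SE 0.12, adjusted p = 0.0309). Its call ended without any 1 array other than negative control replicate 2 (-0.45 to -0.32, adjusted p = 0.0617 to 0.105). UPF2, which connects UPF1 to the exon junction complex, had 8.33, 8.08 and 8.09 with miR-205, against 8.63, 8.18 and 8.64 with the control. The groups overlapped through negative control replicate 2, and the change of -0.31 ± 0.13 did not pass (adjusted p = 0.109), although without that array it was -0.47 (adjusted p = 0.00466). SMG6, the endonuclease of the pathway, had 8.44, 8.53 and 8.41 with miR-205, against 8.45, 8.47 and 8.46 with the control (0.00 ± 0.06, adjusted p = 0.989).

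Negative control replicate 2 moved with these falls, but it was also the control nearest to the miR-205 arrays over all genes. Its differences from them had an SD of 0.275 to 0.284, against 0.322 to 0.339 for the other controls. Its position among the controls was not counted over all genes. This array was below both other controls for 4 of the 5 nonsense-mediated decay genes and for 7 of the 8 decay genes that fell. Over all 49 decay genes it was below both other controls in 22, above both in 17 and between them in 10, and it was above both for 4 of the 10 genes that rose. Averaged over the 5 genes, log2 intensity was 9.20, 9.18 and 9.13 with miR-205, against 9.69, 9.38 and 9.74 with the control, the 9.38 being that array. Without it the changes were -0.96 for UPF1, -0.74 for SMG1 and -0.56 for SMG5 (adjusted p = 0.000151, 0.000304 and 0.000762), and all 18 genes called over the 6 arrays still passed. What sets this array apart was not tested.

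**Figure D4:**
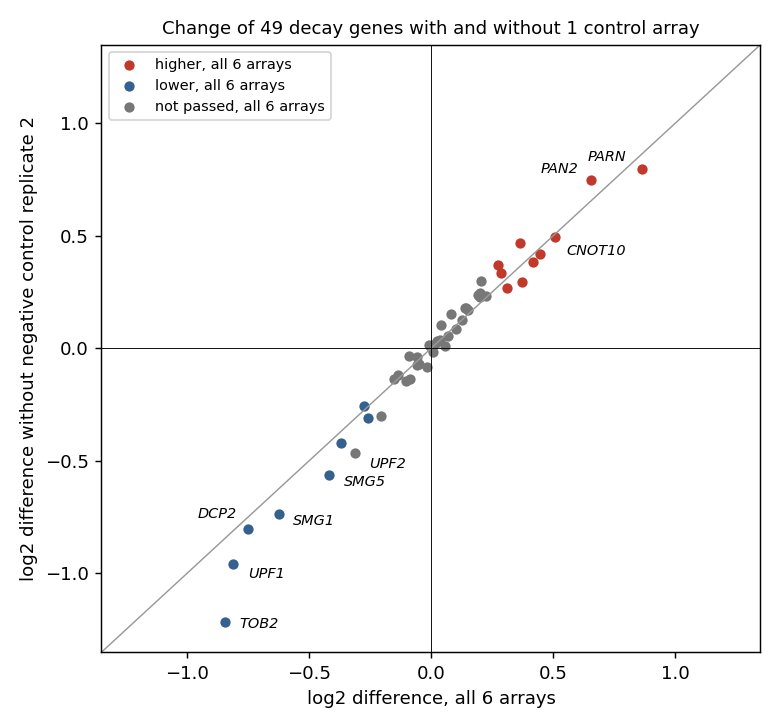
Log2 difference (miR-205 minus negative control) of 49 decay genes over all 6 arrays (x axis) and without negative control replicate 2 (y axis), with the line of equal values. Genes that fell mostly lie below the line, TOB2 at -0.85 and -1.22 and UPF1 at -0.81 and -0.96, while PARN lies near it at 0.86 and 0.80.

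Other genes of the pathway were read from a list of 61 cofactors, of which 55 were measured. Of these, 11 rose, 8 fell and 36 did not pass (34.5% called, beside 26.6% of all genes), with a median log2 change of 0.05, beside -0.02 over all genes. In the fit of the 13590 genes above background, which held 53 of the list, 15 rose and 9 fell, beside 2482 and 2787 of all its genes. The list held 7 to 11 higher and 5 to 9 lower genes with 1 array left out, the fewest of both without miR-205 replicate 2 or negative control replicate 3. Leaving out miR-205 replicate 1 also gave 7 higher, and leaving out miR-205 replicate 3 also gave 5 lower. C1D, a cofactor of the nuclear exosome, had 10.25, 10.30 and 10.21 with miR-205, against 8.997, 9.298 and 8.700 with the control, far apart (1.26 ± 0.13, adjusted p = 0.000284). ETF1, the translation termination factor that recognises stop codons, rose by 0.49 (adjusted p = 0.000749), and PAIP1, a partner of the poly(A)-binding protein, by 0.50 (adjusted p = 0.000805). STAU2, a Staufen protein that binds double-stranded RNA, rose by 0.43 (adjusted p = 0.000812). These 4 had the smallest p of the list. The following were chosen after their values were seen. TENT4A and TENT4B, noncanonical poly(A) polymerases, fell by 0.71 (adjusted p = 0.000938) and 0.52 (adjusted p = 0.0054). Of cofactors of nonsense-mediated decay, the exon junction genes MAGOH and MAGOHB rose by 0.35 (adjusted p = 0.012) and 0.33 (adjusted p = 0.0239), and SMG9, a regulator of the SMG1 kinase, fell by 0.29 (adjusted p = 0.0172). The other exon junction genes of the list did not pass. These were EIF4A3 (-0.02, adjusted p = 0.838), CASC3 (-0.07, adjusted p = 0.478), RBM8A (0.10, adjusted p = 0.369) and RNPS1 (0.19, adjusted p = 0.0544). SMG8 did not pass either (-0.12, adjusted p = 0.281). The MAGOH call ended without miR-205 replicate 2 (0.32, adjusted p = 0.0521). That of MAGOHB ended without miR-205 replicate 1 or 2 or negative control replicate 1 or 3 (0.26 to 0.33, adjusted p = 0.0643 to 0.0871), and that of SMG9 without miR-205 replicate 2 or 3 or negative control replicate 1 or 3 (-0.28 to -0.25, adjusted p = 0.0584 to 0.0688).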

How the data were processed

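The deposited values were log2 intensities made by the authors. The submitters' processing notes name RMA and Affymetrix Expression Console 1.1.2. The values were used without further normalization. RMA equalises the distribution of the arrays, so a shift shared by most transcripts would not be seen. Of 33297 probe sets, 21214 were annotated and 19460 carried 1 gene symbol, which gave 18417 genes (for 769 genes with several probe sets, the one with the highest mean). No symbol needed an update, and 0 columns of values were unused.

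A linear model with the group as its single term was fitted to all 6 arrays with limma 3.58.1 (lmFit, eBayes) under R 4.3.3. Tests were two-sided, p-values were adjusted over the 18417 genes by the Benjamini-Hochberg method, and the threshold was 0.05. The fit was tested on simulated data with independent noise for each gene and changes larger than that of any decay gene. Smaller changes, and a shift shared by many genes of an array, were not simulated. Lists are described by counts and medians, with no set test. Differences between paralogs within an array were taken for the 3 pairs with a called gene and compared by exact permutation, adjusted over the 3. This test could not give less than 0.1, and the pairs were picked by calls in the same arrays. Nothing is concluded from its p-values. The members and lists were chosen with earlier results of these data known. Values in every array are given for genes past the threshold with a log2 change of at least 0.5, for paralog pairs with a called gene, and for some others chosen after their values were seen. For the cofactor list, the 4 genes with the smallest p are named, with some others chosen after their values were seen. Alternatives covered other normalizations, averaged probe sets, a filter on dim genes, array weights, a robust variance with a trend, a block for the replicate number, and each array left out. The number of arrays limits the precision.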

Additional observations from a re-analysis of the deposited data

Results flagged for a closer look

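Probe sets that the comparison left out, because they name several genes or repeat a gene, also differed between the groups. Of 13 probe sets annotated to SMG1 together with its pseudogenes, 10 were lower with miR-205 by limma over all 21214 annotated probe sets, of which 13.3% were called lower. A pair of the 13 held identical values, so these are 9 of 12 distinct measurements. The log2 changes of these 10 were -0.31, -0.28, -0.36, -0.25, -0.31, -0.35, -0.45, -0.34, -0.31 and -0.37, beside -0.62 for the probe set of SMG1 alone. Those of the 13 that did not pass changed by -0.16, -0.15 and 0.03. Signals of SMG1 and of its pseudogenes cannot be told apart on them. Another 2 probe sets of LSM2 held values identical to those used above, with a change of 0.29 each, and add no independent measurement. With 3 arrays per group, single arrays were not tested as outliers.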

How the results depend on the processing

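Of the 18 called decay genes, 12 passed under all 13 alternatives, and no decay gene reversed while called. EXOSC8, LSM2, LSM5, PAN3, SMG5 and TOB2 lost the call with at least 4 single arrays left out. Fewer samples were then fitted. With 1 array left out, 7 to 13 decay genes were higher and 5 to 10 lower, 7 to 11 and 5 to 9 cofactor genes, and 1588 to 2668 and 1777 to 2881 of all genes. Under the other alternatives these counts stayed within 1.5 times those reported. Deviations from the group means correlated weakly for the same replicate number, at 0.06, 0.09 and 0.01. Even so, 5 of 6 arrays correlated best with their own number. Whether the replicate numbers pair the arrays is undecided, and the main fit did not use them. With the replicate block 9 decay genes were higher and 9 lower, 10 and 7 cofactor genes, and 2204 and 2423 of all genes. LSM5 then missed the threshold and UPF2 passed it. Over the 637 values that the 13 alternatives gave for decay genes, a call was lost 30 times and gained 21 times, the gains falling to EXOSC9, EXOSC5, EXOSC1, EXOSC10, DCPS, LSM4, CNOT4 and UPF2. AGO2, C1D, ETF1, PAIP1, STAU2, TENT4A and TENT4B passed under all 13.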
